A study of Mus musculus with 4 samples.

Results

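The small leucine-rich proteoglycans (SLRPs) described here are decorin (Dcn), biglycan (Bgn), lumican (Lum), fibromodulin (Fmod), asporin (Aspn), osteoglycin (Ogn), keratocan (Kera), prolargin (Prelp) and osteomodulin (Omd). These 9 genes were picked by name, and not by a rule on their levels, out of the 32285 genes in the count matrices. Earlier results of these data were known when they were chosen. They were followed in the mesenchymal cell types and tenocyte precursor-like cells of the mouse fracture callus, which held 9094 of the 25479 cells that passed quality control. The callus is the repair tissue that forms around a broken bone, and here it came from the fractured tibia of male wild-type C57BL/6J mice aged 3 months. RA mice received repeated injections of K/BxN serum, arthritogenic serum that induces a systemic inflammation resembling rheumatoid arthritis, and control mice received vehicle. Callus was collected 4 or 7 days post fracture (dpf), and each of the 4 groups (control at 4 dpf, control at 7 dpf, RA at 4 dpf and RA at 7 dpf) was a single droplet library made from 1 pool of calluses. With 1 library per group there was no replicate check on any difference and no test was possible, so the intervals given are 95% intervals that cover counting error only.

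SLRPs are secreted proteins with a core of leucine-rich repeats that docks onto collagen fibrils and sets their diameter and spacing. Most carry chondroitin, dermatan or keratan sulfate chains, and several also bind transforming growth factor β and other signals in the matrix. Tendon, skin, cornea, cartilage and bone each use a different mixture of them, which is why the family is read here cell type by cell type.

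The members sit in neighbouring groups of the mouse genome (GRCm38). Dcn (97479609 to 97518143), Lum (97565128 to 97572703) and Kera (97606879 to 97613692) follow each other on the plus strand of chromosome 10, with 46984 bases between Dcn and Lum and 34175 bases between Lum and Kera. Aspn (49544443 to 49567565), Omd (49582462 to 49592822) and Ogn (49608046 to 49624501) follow each other on the plus strand of chromosome 13. Prelp (133910304 to 133921414, minus strand) and Fmod (134037254 to 134048277, plus strand) are neighbours on chromosome 1, and Bgn (73483602 to 73495933, plus strand) stands on chromosome X. Aspn, Omd and Ogn lie inside the span of Cenpp, a gene on the opposite strand, and an exon of Aspn overlaps an exon of Cenpp. Cenpp stood at 16.3 to 25.9 CPM (counts per 1000000 UMIs of the same cells) in the mesenchymal cells, against 745 to 1302 for Aspn. Prelp overlaps the antisense gene Gm15851, which stood at 0.287 to 0.761 CPM. Whether counting used the strand is not given in the sources used here.

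The 250 bases before the start that RefSeq annotates are shown for the chromosome 13 neighbours and for Fmod. The chromosome 13 neighbours lie close together yet differed at 7 dpf in the cells where each was highest. Fmod marked tenocytes and cartilage-forming cells. They were read from RefSeq promoters of GRCm38.p6, which held 7 of the 9 members. Capitals mark the TATA box letters TATAAA, the RUNX motif's core letters TGTGGT and the E-box letters CANNTG, each searched on both strands, with overlapping matches marked together.
Aspn, chr13:49544193-49544442, plus strand: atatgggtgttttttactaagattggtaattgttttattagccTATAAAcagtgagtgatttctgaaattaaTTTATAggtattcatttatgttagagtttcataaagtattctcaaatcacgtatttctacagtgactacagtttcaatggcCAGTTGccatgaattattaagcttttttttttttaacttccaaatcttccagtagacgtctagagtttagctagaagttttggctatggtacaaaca
Omd, chr13:49582212-49582461, plus strand: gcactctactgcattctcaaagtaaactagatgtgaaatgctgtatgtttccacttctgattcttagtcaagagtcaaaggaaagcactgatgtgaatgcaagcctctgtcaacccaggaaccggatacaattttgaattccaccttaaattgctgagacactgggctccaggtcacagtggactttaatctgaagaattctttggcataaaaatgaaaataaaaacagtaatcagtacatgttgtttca
Ogn, chr13:49607765-49608014, plus strand: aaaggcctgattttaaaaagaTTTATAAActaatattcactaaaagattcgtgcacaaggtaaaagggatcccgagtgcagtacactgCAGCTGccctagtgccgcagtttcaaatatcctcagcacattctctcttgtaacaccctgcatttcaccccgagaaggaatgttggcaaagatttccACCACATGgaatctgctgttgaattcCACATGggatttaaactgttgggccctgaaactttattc
Fmod, chr1:134037004-134037253, plus strand: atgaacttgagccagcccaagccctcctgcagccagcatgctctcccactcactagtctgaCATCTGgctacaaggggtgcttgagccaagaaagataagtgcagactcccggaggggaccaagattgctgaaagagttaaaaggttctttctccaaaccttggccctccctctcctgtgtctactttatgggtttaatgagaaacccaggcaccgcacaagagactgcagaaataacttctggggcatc
TATAAA was present in the Aspn and Ogn windows, 2 of 7 members, and in 12.4% of 32851 mouse promoter windows of the same length. TGTGGT was present in the Ogn window alone, as in 4614 of all windows. CANNTG was present in 4 of 7 member windows (Fmod, Aspn, Ogn and Bgn), against 66.2% of all windows. The AP-1 motif TGANTCA was in 0 of 7 member windows, against 6.75% of all windows. The Omd window held none of these letters, and these matches are a description of the windows only.

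Cells were grouped by clustering with the 9 members left out of the clustering genes and of the markers, so their levels did not make the classes. Values for all 4 libraries are given throughout in the order control 4 dpf, control 7 dpf, RA 4 dpf and RA 7 dpf. There were 6 classes, and common mesenchymal-like cells, led by cell-cycle genes such as Cenpf and Hmmr, numbered 53, 147, 53 and 75. They were a subset of the cluster that also gave the osteochondral class. Summed over libraries they held Col2a1 at 498 CPM, against 29.4 CPM in committed progenitor-like cells. There were 258, 1186, 298 and 1061 committed mesenchymal progenitor-like cells, led by the matrix genes Tnn and Tnc. Osteochondral progenitor-like cells, led by Col2a1 and Ibsp, numbered 2, 229, 2 and 131, so they were compared at 7 dpf only, since a class needed 20 cells in a library. Fibroblast precursor-like cells, led by Rorb, Efemp1 and Pi16, numbered 198, 403, 93 and 804. Fibroblast-like cells, led by Myoc, Cxcl14 and Abca8a, numbered 338, 961, 270 and 1636. Tenocyte precursor-like cells, with the tendon genes Tnmd, Thbs4, Scx and Mkx among their leading genes, numbered 145, 253, 95 and 403. The borders of the classes moved with the clustering. Common mesenchymal-like cells numbered 121, 327, 140 and 148 without integration, 51, 176, 56 and 76 with the members kept for clustering, and 114, 490, 148 and 329 in a finer clustering. Fibroblast precursor-like cells numbered 330, 775, 164 and 1600 without integration and 205, 365, 85 and 801 in the finer clustering. Tenocyte precursor-like cells numbered 119, 73, 86 and 216 without integration, and 114, 161, 86 and 230 with the members kept. The finer clustering gave the tenocyte name to clusters of 56, 224, 20 and 288 and of 112, 155, 86 and 224 cells. Ratios within classes and subset shares are given for the main clustering only. Kera and Fmod headed the list of genes by fold in the tenocyte precursor-like class although neither had been used to build it.

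Depth was alike between libraries, with a median of 16094 to 17632 UMIs (unique molecular identifiers, each counting an RNA molecule once) per kept cell, and 5 to 15 barcodes were shared by any pair of libraries. Medians by mesenchymal class and library were 16378 to 38513 UMIs, each above that of all kept cells of its library except tenocyte precursor-like cells of RA callus at 4 dpf (16378 against 17632), so the study's upper limit of 50000 UMIs per cell lay closer to most of them than to other cells. Levels are given as CPM, and since UMIs count molecules whatever the length of the transcript they can be set side by side between genes without a length correction. Markers of other cell types stayed low in these cells: the summed level of 6 macrophage markers was 13.4 to 239 CPM over 22 class and library sums, with 0 of the 6 absent from any sum, that of 5 endothelial markers 9.93 to 58.3 CPM and that of 5 muscle markers 1.64 to 18.6 CPM. Their part in the results was not tested.

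The SLRPs were among the heavily expressed genes of these cells. All 9 together took 12093, 8755, 9911 and 11337 CPM of the pooled mesenchymal classes, or 1.21%, 0.875%, 0.991% and 1.13% of their UMIs. Tenocyte precursor-like cells held the highest family level in every library, at 29267, 15224, 24763 and 18487 CPM, and fibroblast-like cells came next at 15509, 10414, 13879 and 12727 CPM. Common mesenchymal-like cells were lowest in 3 of 4 libraries, at 4619, 5502, 3517 and 6055 CPM, and osteochondral cells at 6043 CPM were level with them in RA callus at 7 dpf. Macrophage-like cells, taken here as cells that do not make these proteins, stood at 54.2, 140, 28.4 and 158 CPM, a level used as background. Its source, free RNA or other, was not tested.

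Dcn and Bgn made up most of the family. Dcn held 47.0%, 27.01%, 37.9% and 43.9% of the family's UMIs in the pooled classes, and Bgn 22.2%, 31.4%, 30.3% and 23.0%. In committed progenitor-like cells Bgn held 39.0%, 39.4%, 48.5% and 32.8% of the family and led Dcn in all 4 libraries. In common mesenchymal-like cells Bgn led in 3 of 4, the exception being RA at 7 dpf (39.0% Dcn against 32.7% Bgn). Fmod reached 17.5%, 14.8%, 31.1% and 18.1% of the family in tenocyte precursor-like cells and at most 0.741% in either fibroblast class. Aspn reached 19.8% of the family in committed progenitor-like cells of the control callus at 7 dpf.

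**Figure D1:**
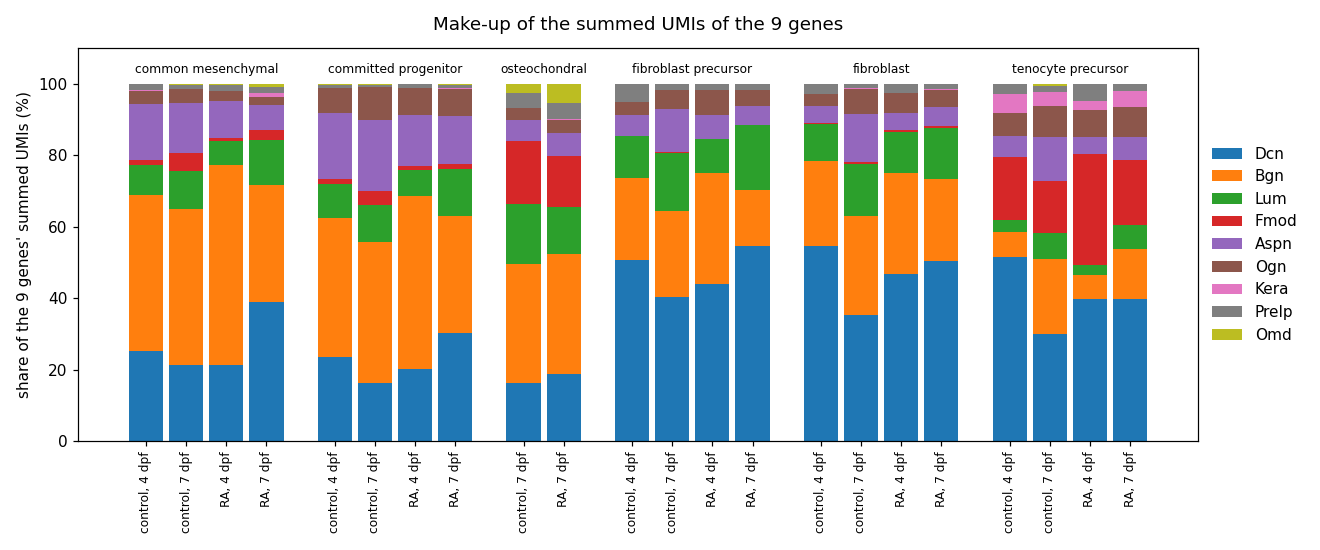
Share of the family's UMIs (percent, vertical axis) taken by each of the 9 SLRP genes in every mesenchymal class and library, as stacked bars. Dcn takes 35.2% to 54.7% of the bars of the fibroblast-like class and Fmod widens in the tenocyte precursor-like class to between 14.8% and 31.1%.

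Among the decorin-like members, Dcn, which binds collagen fibrils and limits their lateral growth, showed a gradient from fibrous to skeletal cells. It stood at 15096, 4569, 9827 and 7355 CPM in tenocyte precursor-like cells and at 8480.2, 3663, 6477 and 6398 CPM in fibroblast-like cells. Fibroblast precursor-like cells held 4042, 3317, 3691 and 5479 CPM. The committed progenitor-like cells were lower, at 1636, 1256, 1181 and 2896 CPM, and the common mesenchymal-like cells stood at 1171, 1175, 749.6 and 2359.5 CPM. Osteochondral progenitor-like cells held 1031 CPM in control and 1129 CPM in RA callus at 7 dpf. By median over libraries the order was tenocyte, fibroblast, fibroblast precursor, committed, common and osteochondral, and the only neighbours in it whose ranges over libraries did not overlap were fibroblast precursor-like and committed cells, 2.67-fold apart in median.

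Bgn, a close relative of Dcn that carries a pair of sugar chains and is known as a danger signal when freed from the matrix, was spread evenly. Fibroblast-like cells held 3681, 2905, 3953 and 2920.3 CPM, and committed progenitor-like cells 2716, 3026, 2846 and 3150.0 CPM. Tenocyte precursor-like cells held 2029.7, 3194, 1686 and 2587 CPM. Across the 6 classes its levels ran from 1572 to 3953 CPM, and every pair of neighbours in the order of medians overlapped over the libraries. Its leading class changed between libraries, from fibroblast-like at 4 dpf to tenocyte precursor-like in control and committed progenitor-like in RA callus at 7 dpf.

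Aspn, an aspartate-rich member that binds collagen and transforming growth factor β, was highest by median in tenocyte precursor-like and committed cells. Fibroblast-like cells came next, 1.84-fold below committed cells in median and with overlapping ranges. Its levels were 1701, 1876, 1217 and 1219.9 CPM in tenocyte precursor-like cells and 1297, 1520.2, 847 and 1293 CPM in committed progenitor-like cells. The osteochondral class was lowest by median, at 373 and 384 CPM at 7 dpf, and its range did not overlap that of the next class, fibroblast precursor-like cells (463, 999, 561 and 532 CPM), but it lay within that of common mesenchymal-like cells (728, 776, 358 and 435 CPM).

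Among the members related to lumican and fibromodulin, Lum, which spaces collagen fibrils in skin and cornea, was highest in fibroblast-like cells in every library, at 1609.8, 1499, 1586 and 1837 CPM. Fibroblast precursor-like cells held 936, 1337, 793 and 1821 CPM, and tenocyte precursor-like cells 1013, 1084, 663 and 1243 CPM. The common class was lowest at 387, 587, 234 and 756 CPM, but all neighbours in the order overlapped.

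Fmod, which guides collagen fibril assembly in tendon and cartilage, had 3 of 5 neighbouring classes without overlap, as did Ogn. The share of all genes with as many was not counted, so this count is not read as a trait of either. Osteochondral ranges cover 7 dpf alone. Fmod stood at 5118, 2251, 7691 and 3339 CPM in tenocyte precursor-like cells and at 1106 and 870.0 CPM in osteochondral cells at 7 dpf. Fibroblast precursor-like cells held 1.51, 8.86, 4.75 and 4.41 CPM. Fibroblast-like cells held 45.3, 77.1, 58.2 and 60.6 CPM. The tenocyte range lay above the osteochondral range, the osteochondral range above that of the common class (61.3, 272, 29.1 and 169.5 CPM), and the fibroblast range above that of the fibroblast precursors. The fibroblast precursor levels lay within the range of macrophage-like cells, 1.18 to 6.78 CPM, in every library but control at 7 dpf. The 8.86 CPM there was above it, and none of these levels was told apart from background.

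Kera, a keratan sulfate proteoglycan best known from the cornea and also found in tendon, was far higher in tenocyte precursor-like cells than elsewhere. It stood there at 1558, 619, 672 and 864 CPM, 74.7-fold above the next class by median, with no overlap of ranges. Committed progenitor-like cells held 11.8, 8.77, 0.307 and 43.5 CPM and common mesenchymal-like cells 4.84, 6.46, 0 and 67.6 CPM. The 0 in the common class of RA at 4 dpf was 0 UMIs in 53 cells, which allows up to 1.64 CPM (3 UMIs). Fibroblast-like cells held 4.71, 12.3, 0.805 and 10.0 CPM, and fibroblast precursor-like cells 0.605, 3.27, 0.678 and 5.09 CPM. Kera in macrophage-like cells was 0.737, 0.401, 0.0437 and 2.43 CPM, highest in RA at 7 dpf as well.

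Prelp, which ties collagen to heparan sulfate chains of the basement membrane, stood at 839.8, 255, 1141 and 325 CPM in tenocyte precursor-like cells and at 424, 117, 348 and 181 CPM in fibroblast-like cells. Fibroblast precursor-like cells held 393, 144, 137 and 171 CPM, and osteochondral cells 267 and 274 CPM at 7 dpf. Committed progenitor-like cells were low at 64.2, 49.96, 53.2 and 82.5 CPM. Omd, also called osteoadherin, a bone matrix member that binds mineral, was the scarcest of the 9 in the pooled classes at 13.5, 33.3, 12.96 and 28.8 CPM. Osteochondral cells held 158 and 321 CPM at 7 dpf, and tenocyte precursor-like cells 30.1, 90.8, 19.6 and 24.9 CPM. The medians were 8.70-fold apart without overlap of ranges, but the osteochondral median covers 7 dpf alone. At 7 dpf the levels were 158 against 90.8 CPM in control and 321 against 24.9 CPM in RA. An Igf2-led subset of the tenocyte precursor-like cells, described below, held 386 CPM in control at 7 dpf. Whether the cells of that subset were tendon or skeletal was not tested.

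Ogn, a member of its own branch also called mimecan, was highest in tenocyte precursor-like cells in every library, at 1882, 1286, 1847 and 1528 CPM. Fibroblast-like cells held 528, 730.3, 768 and 622 CPM and committed progenitor-like cells 477, 695, 443 and 710.0 CPM. The common class was lowest at 170.4, 210.5, 106 and 125 CPM. Ogn led in tenocyte precursor-like cells in all 4 libraries and Aspn in 3 of 4. Omd led in them at 4 dpf and in osteochondral cells at 7 dpf. The chromosome 13 neighbours therefore differed in their leading cells at 7 dpf only. At 4 dpf osteochondral cells were too few to be compared. In all, 5 of the 9 members had the same leading class in every library, Dcn, Fmod, Ogn and Kera in tenocyte precursor-like and Lum in fibroblast-like cells. This count ran from 4 to 6 over 11 alternatives of the processing. The share of all genes with the same leading class in every library was not counted, so the count is not read as a trait of the members.

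**Figure D2:**
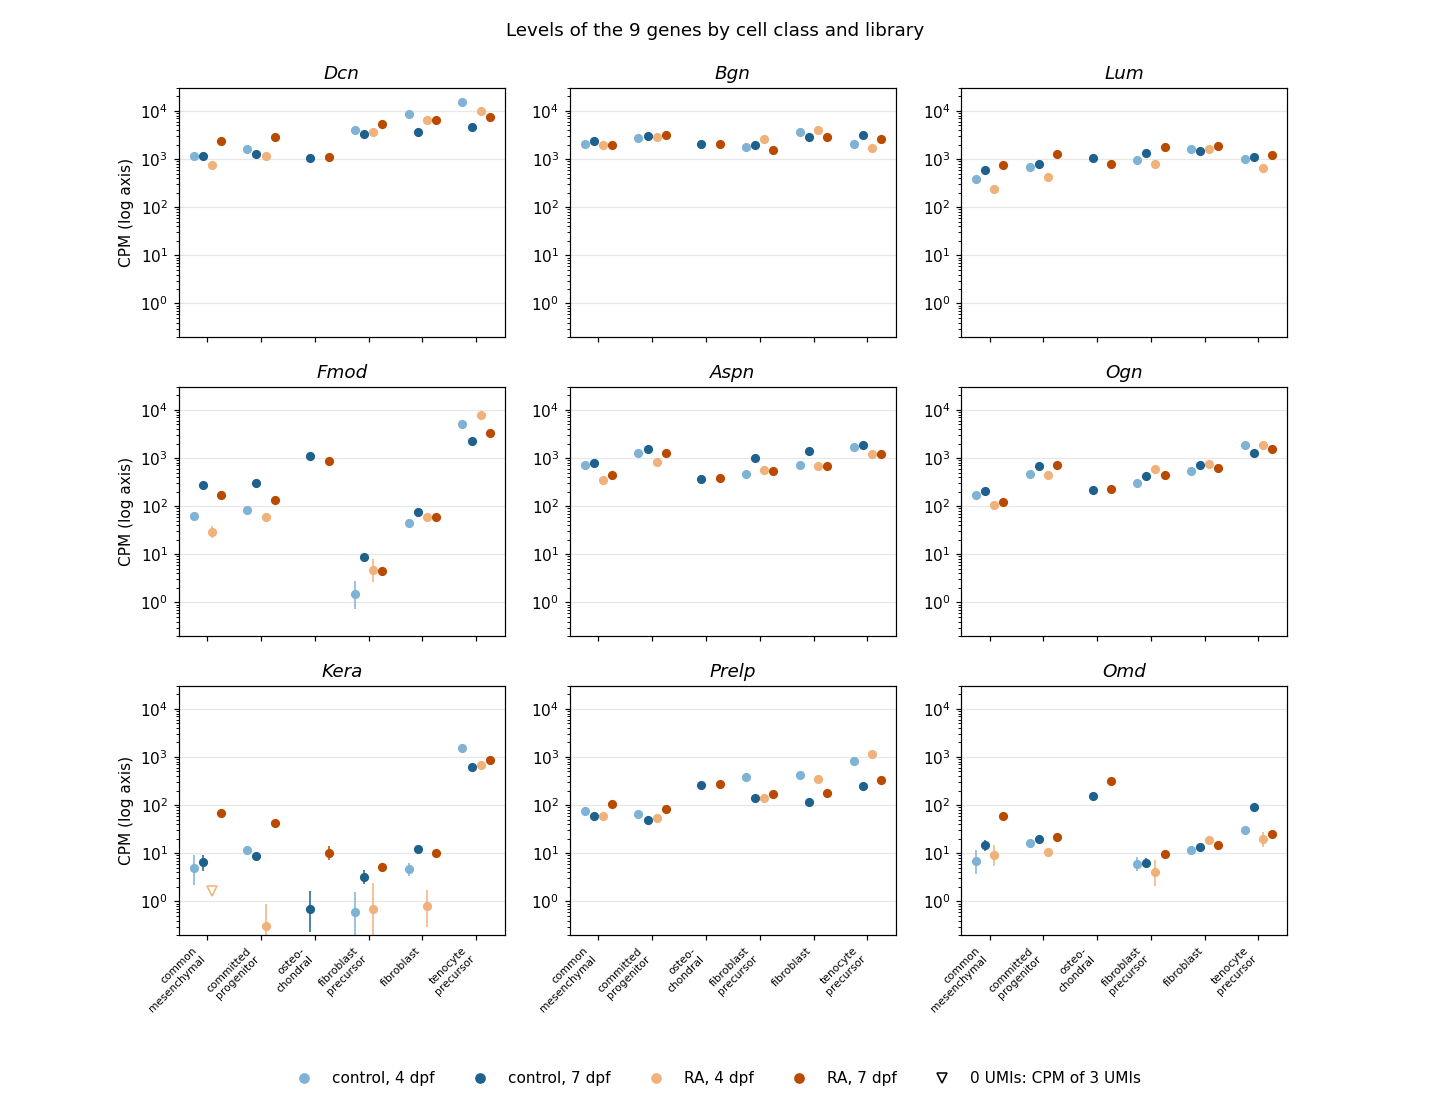
Level of each SLRP gene (CPM, log axis) in the 6 mesenchymal classes, with a point for each library, its 95% counting interval as a bar and an open triangle at the CPM of 3 UMIs where a library had 0. Fmod and Kera stand far higher in the tenocyte precursor-like class than in the fibroblast classes, whereas the points of Bgn lie between 1572 and 3953 CPM in every class.

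The same contrasts appeared per cell when every cell was thinned to 4000 UMIs. Kera had a UMI in 45.8% to 79.3% of tenocyte precursor-like cells by library (59.3% to 85.5% before thinning), 0% to 8.01% of committed progenitor-like cells and 0.0647% to 1.07% of macrophage-like cells. Fmod had a UMI in 93.1% to 98.9% of tenocyte precursor-like, 84.0% to 88.6% of osteochondral and 0.505% to 1.99% of fibroblast precursor-like cells, against 0.556% to 2.99% of macrophage-like cells. Omd had a UMI in 31.9% and 43.5% of osteochondral cells and 3.45% to 13.7% of tenocyte precursor-like cells. Dcn had a UMI in 96.8% to 100% of tenocyte precursor-like cells but also in 2.52% to 19.8% of macrophage-like cells, whose median depth before thinning was 10792 to 14061 UMIs.

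Tenocyte precursor-like cells were themselves mixed, and the members differed widely between their subsets. A subset led by Angptl7 held 84, 17, 31 and 84 cells. Summed over libraries it stood at 18640 CPM for Dcn, 8631 CPM for Fmod, 1845 CPM for Kera and 1217 CPM for Prelp, and its family level was 36465 CPM. A subset led by Lrrc15, with 38, 151, 7 and 203 cells, stood at 5648 CPM for Dcn, 1621 CPM for Fmod, 786 CPM for Kera and 166 CPM for Prelp. A subset led by Col22a1, a collagen of the muscle to tendon junction, held 18, 10, 51 and 80 cells and paired high Fmod (6279 CPM) with lower Dcn (5960.1 CPM). A subset led by Igf2, with 3, 60, 0 and 23 cells, was low in Kera (101 CPM) and highest in Omd (341 CPM), Aspn (2813 CPM) and Bgn (3769 CPM). Its osteochondral markers Runx2 (356 CPM), Alpl (150 CPM) and Acan (440 CPM) were highest of all subsets, summed over libraries. The next highest levels were 112, 27.4 and 192 CPM. It was not highest in Col2a1 (28.1 CPM) or Ibsp (5.37 CPM). Its tendon genes Thbs4 (924 CPM) and Tnmd (642 CPM) were lowest of all subsets, with 3454 and 915 CPM the next. Whether its cells were tendon or skeletal was not tested. A last subset of 36 cells was led by macrophage genes such as Lyz2. The subsets were drawn without the members, and their makeup changed with time: the Angptl7-led subset was 57.9% of the class in control at 4 dpf and 6.72% at 7 dpf. It also differed between RA and control: at 4 dpf the Angptl7-led subset was 32.6% of the class in RA, and the Col22a1-led subset 53.7% in RA against 12.4% in control, and at 7 dpf the Angptl7-led subset was 20.8% in RA.

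In the Lrrc15-led subset the differences of Dcn, Fmod and Kera were smaller than in the class, whereas that of Lum at 7 dpf was larger, at 1.45 times control in RA against 1.15 in the class. Dcn in the Lrrc15-led subset was 7519 CPM in control at 4 dpf, 4528 CPM in control at 7 dpf and 6084 CPM in RA at 7 dpf. That is 0.602 times from 4 to 7 dpf in control, against 0.303 in the whole class, and 1.34 times control in RA at 7 dpf, against 1.61 in the class. Fmod in the same subset was 1611, 1606 and 1636 CPM in these libraries, whereas in the class it stood at 0.440 times its 4 dpf level in control at 7 dpf. Kera in this subset was 717, 734 and 855 CPM. In the Angptl7-led subset, which had 20 cells or more in 3 libraries, Kera was 2350.4 CPM in control at 4 dpf, 1207 CPM in RA at 4 dpf and 1617 CPM in RA at 7 dpf. Which part of each class difference came from the mix of subsets was not measured beyond these values.

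**Figure D3:**
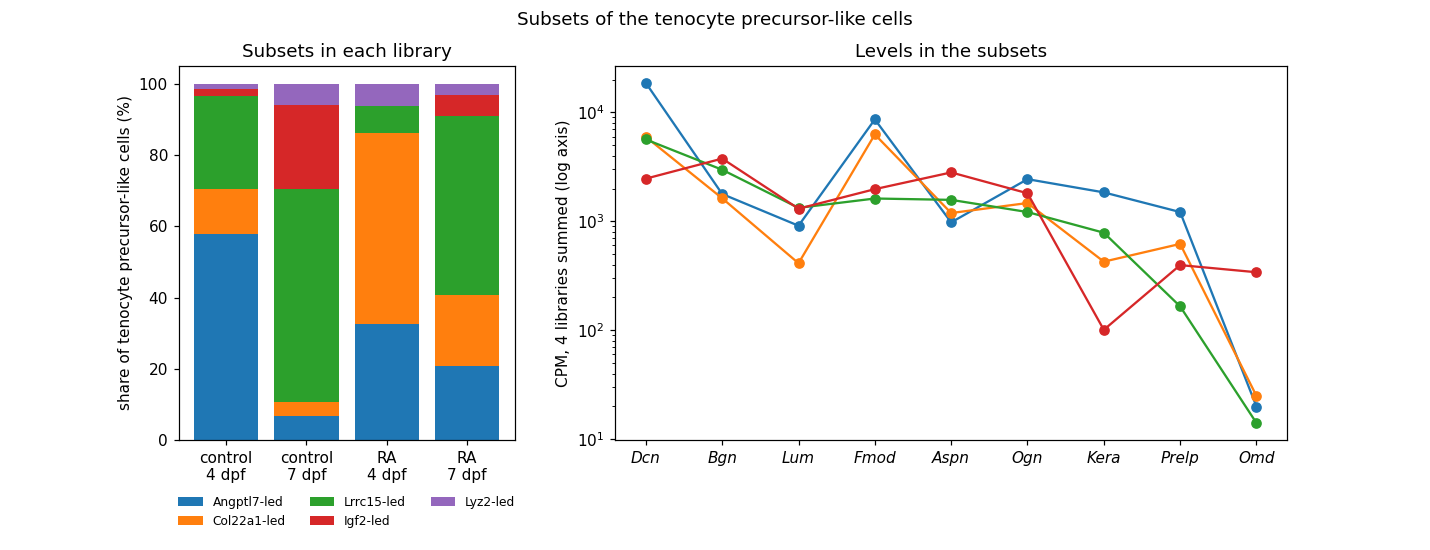
Left, share of tenocyte precursor-like cells (percent) in each subset, named by a leading gene, by library; right, level of each SLRP gene (CPM, log axis) in 4 subsets with the libraries summed, with lines joining the points of a subset. The Angptl7-led share goes from 57.9% to 6.72% in control between 4 and 7 dpf, and this subset stands highest for Dcn, Fmod, Kera and Prelp while the Igf2-led subset does for Omd and Aspn.

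Osteochondral cells split into a subset led by Col10a1, the collagen of hypertrophic cartilage, with 109 control and 69 RA cells at 7 dpf, and a subset led by Kcnq3, with 120 and 62 cells. Aspn was 62.3 CPM in the Col10a1-led and 715 CPM in the Kcnq3-led subset, and Ogn was 59.4 against 383 CPM. Omd was higher in RA than in control in the Kcnq3-led subset, at 379.7 against 94.7 CPM, and stood at 274 against 221 CPM in the Col10a1-led subset.

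At 4 dpf the comparison of RA with control asked how the inflamed callus differed early, when few osteochondral cells were present. In the pooled classes 1 of the 9 members was past 2-fold, Kera, which was lower in RA, against 1.59% of 14261 genes past 2-fold in either direction, 0.841% lower and 0.75% higher. Kera stood at 50.7 CPM in RA and 182 CPM in control, 0.278 times (0.261 to 0.296). Dcn was 3759.7 against 5684 CPM, 0.661 times (0.656 to 0.667). Lum was 0.816 times control (0.802 to 0.831), Aspn 0.779 (0.765 to 0.794) and Prelp 0.718 (0.694 to 0.741). Bgn was 1.12 times (1.11 to 1.13), Ogn 1.08 (1.06 to 1.10), Fmod 0.995 (0.974 to 1.02) and Omd 0.959 (0.825 to 1.11), and the last 2 intervals include 1. The median log2 ratio of the 9 members was -0.29 and that of all genes 0.03, and the family as a whole was 0.820 times control (0.815 to 0.824).

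Within classes, shares of genes past 2-fold cover both directions. At 4 dpf Dcn was lower in RA in 5 of 5 classes, from 0.640 times in common mesenchymal-like cells to 0.913 in fibroblast precursor-like cells, and 14.3% of genes tested in all 5 were lower in each of them. Lum was also lower in 5 of 5, although its interval in fibroblast-like cells (0.962 to 1.01) includes 1. Kera was 0.431 times control in tenocyte precursor-like cells (0.405 to 0.459), the 1 member of 9 past 2-fold there, where 5.85% of genes were. In committed progenitor-like cells it had 3 UMIs in RA and 110 in control, a ratio of 0.0261 (0.00529 to 0.0782), and was again the 1 member past 2-fold, against 2.08% of genes. After thinning, 0.0647% of macrophage-like cells had a Kera UMI in RA at 4 dpf and 0.317% in control, so this background was lower in RA too. Its part in the Kera ratio of committed progenitor-like cells was not tested. Prelp was past 2-fold in fibroblast precursor-like cells alone, at 0.350 times (0.314 to 0.388), against 4.93% of genes. In the 53 common mesenchymal-like cells of each library, Fmod (0.474) and Aspn (0.491) were past 2-fold, 2 of 7 members tested, against 4.40% of genes. No member was past 2-fold in fibroblast-like cells (0 of 8 tested, against 1.88%). Ogn went the other way in both fibroblast classes, at 1.95 times control in the precursors (1.82 to 2.08) and 1.46 in fibroblast-like cells (1.40 to 1.51).

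At 7 dpf, when cartilage and bone cells had appeared, 1 of the 9 members was past 2-fold in the pooled classes, and this time it was Dcn, higher in RA. The background was 2.54% of 17336 genes in either direction, 1.56% higher and 0.986% lower. Dcn stood at 4972 CPM in RA and 2365 CPM in control, 2.10 times (2.09 to 2.11). Kera was 94.7 against 51.8 CPM, 1.83 times (1.76 to 1.90). Lum (1.44, 1.43 to 1.45) and Prelp (1.44, 1.40 to 1.48) were higher in RA too. Aspn was lower at 859 against 1302 CPM, 0.660 times (0.654 to 0.666). Omd (0.865), Fmod (0.941), Bgn (0.949) and Ogn (1.03) lay closer to control. The median log2 ratio was 0.05 for the members and -0.03 for all genes, and the family was 1.30 times control (1.29 to 1.30).

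The pooled Dcn value at 7 dpf was also computed with other class weights, and the part of class mix in it was not tested. RA callus had 1636 fibroblast-like cells against 961 in control, and 804 fibroblast precursor-like cells against 403. When class levels were weighted by the class sizes of the control library the log2 ratio of Dcn was 0.86 in place of 1.07. The plain mean of the class log2 ratios was 0.76, and both values are below 2-fold. Elsewhere in this text, classes weighted equally means such a mean of class log2 ratios, not a reweighting of class levels. Within classes Dcn was higher in RA in 6 of 6. Of genes tested in all 6, 9.19% were higher in each and 16.4% lower in each. The ratios were 2.31 (2.28 to 2.33) in committed progenitor-like, 2.01 (1.93 to 2.09) in common, 1.75 (1.73 to 1.76) in fibroblast-like, 1.65 (1.63 to 1.67) in fibroblast precursor-like, 1.61 (1.59 to 1.63) in tenocyte precursor-like and 1.10 (1.05 to 1.14) in osteochondral cells. Dcn in macrophage-like cells was 52.0 CPM in RA and 29.9 CPM in control at 7 dpf, and in smooth muscle or pericyte-like cells it was 491 and 176 CPM, higher in RA there as well. The part of free RNA in these values was not tested.

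Other members split between classes at 7 dpf. Prelp was higher in RA in 6 of 6 classes, with ratios from 1.02 in osteochondral cells, whose interval (0.947 to 1.10) includes 1, to 1.72 in common cells. In tenocyte precursor-like subsets Prelp stood at 1.00 (Lrrc15-led) and 0.567 (Igf2-led). Lum was higher in 5 of 6 classes, the exception being osteochondral cells at 0.738 (0.707 to 0.771). Aspn was lower in 5 of 6, down to 0.489 (0.481 to 0.497) in fibroblast-like cells, the 1 member of 9 past 2-fold there against 2.28% of genes, and stood at 1.03 (0.964 to 1.10) in osteochondral cells. Fmod was higher in tenocyte precursor-like cells as a class (1.48, 1.45 to 1.51), but stood at 1.02 in their Lrrc15-led and 0.503 in their Igf2-led subset, the only subsets with 20 cells or more in both libraries, and the Angptl7-led subset with the highest Fmod was 20.8% of the class in RA and 6.72% in control. It was lower in the other 5 classes, down to 0.448 (0.432 to 0.465) in committed progenitor-like cells. In that class 3 of 9 members were past 2-fold, Dcn and Kera (4.95, 4.35 to 5.66) higher and Fmod lower, against 2.81% of genes. In common mesenchymal-like cells Dcn, Kera (10.5, 7.02 to 16.1) and Omd (4.05, 3.01 to 5.52) were past 2-fold, 3 of 9 against 4.14%. After thinning, 1.07% of macrophage-like cells had a Kera UMI in RA at 7 dpf and 0.281% in control, so this background was higher in RA too. Its part in the Kera ratios of the committed and common classes was not tested. Omd was 2.04 times control (1.88 to 2.21) in osteochondral cells, 1 of 8 members tested past 2-fold against 2.17% of genes, and 0.275 times (0.234 to 0.322) in tenocyte precursor-like cells, 1 of 9 against 2.22%. Within the tenocyte precursor-like class Omd stood at 0.656 in the Lrrc15-led and 0.445 in the Igf2-led subset. The Igf2-led subset, with the highest Omd, was 23.7% of that class in control and 5.71% in RA. In fibroblast precursor-like cells 0 of 9 members were past 2-fold, against 5% of genes.

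**Figure D4:**
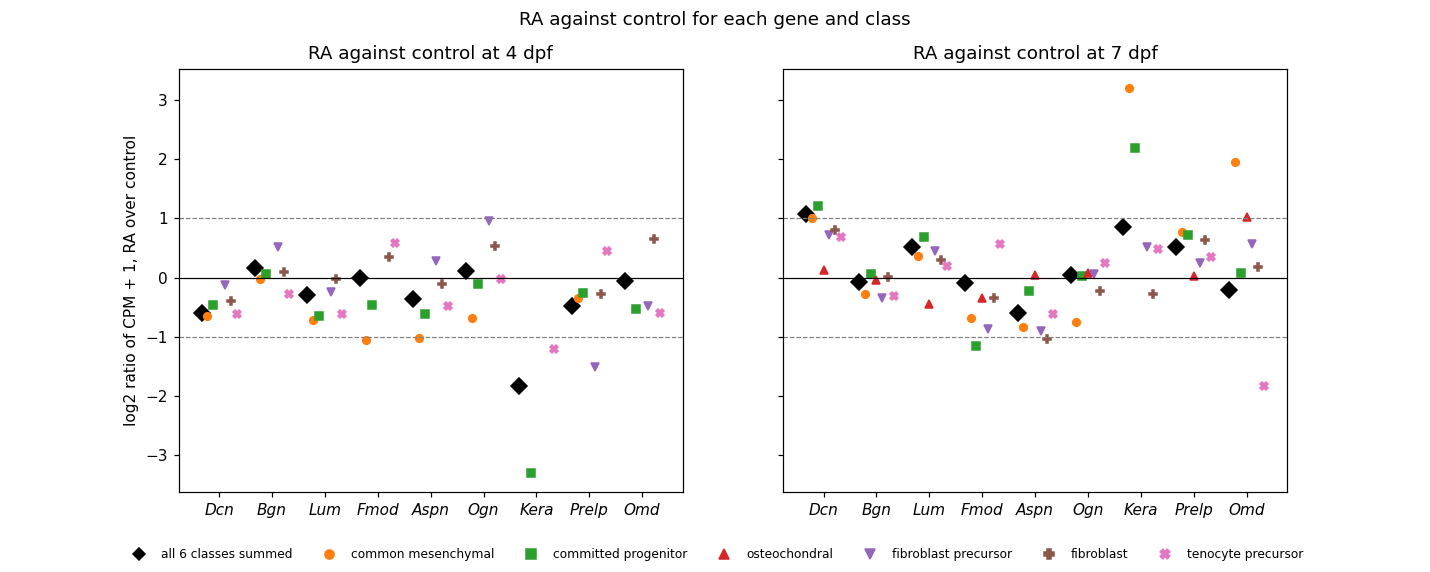
Log2 ratio of RA to control (CPM with a pseudocount of 1) for each SLRP gene, summed over the 6 classes (black diamonds) and within each class (coloured marks), at 4 dpf on the left and 7 dpf on the right, for genes with 50 UMIs or more, with dashed lines at 2-fold. Dcn lies below 0 in every class at 4 dpf (-0.60 in the sum) and above 0 in every class at 7 dpf (1.07 in the sum).

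From 4 to 7 dpf in the control callus, 4 of the 9 members were past 2-fold in the pooled classes, against 3.22% of 16040 genes, 1.45% lower and 1.78% higher. These values share libraries with the comparisons of RA and control, so they are not separate evidence. Dcn went from 5684 to 2365 CPM, 0.416 times (0.413 to 0.419), Kera from 182 to 51.8 CPM, 0.284 times (0.273 to 0.296), and Prelp from 331 to 114 CPM, 0.344 times (0.335 to 0.354). Omd was higher at 33.3 against 13.5 CPM, 2.47 times (2.22 to 2.74). The family was 0.724 times its level at 4 dpf (0.721 to 0.727). A looser cell filter dropped the upper limits on UMIs and features, lowered the lower ones and allowed more mitochondrial UMIs, and its cells were clustered anew. With it Omd alone was past 2-fold, and the family turned from a log2 ratio of -0.47 to 0.0914. The log2 ratios were then -0.56 for Dcn, -0.97 for Kera and -0.70 for Prelp. The direction of Kera rested on tenocyte precursor-like cells: its log2 ratio turned from -1.79 to 0.34 without them. The mean of its class log2 ratios was 0.25, in which classes with little Kera count as much as tenocyte precursor-like cells. Omd was below 2-fold with a pseudocount of 10 CPM (0.88), with classes weighted equally (0.62) and with the class mix of the 4 dpf library (0.71). For Dcn the mean of the class log2 ratios was -0.72, also below 2-fold.

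By class, the lower level of Dcn in the control callus was most marked in tenocyte precursor-like (0.303, 0.298 to 0.307) and fibroblast-like cells (0.432, 0.428 to 0.436), and common mesenchymal-like cells stood at 1.00 (0.955 to 1.06). Prelp was lower in 5 of 5 classes, from 0.275 in fibroblast-like to 0.805 in common cells, and 5.86% of genes were lower in all 5. Aspn and Omd were higher in 5 of 5, with intervals above 1 in 5 and 3 classes, as were 20.4% of genes. In tenocyte precursor-like cells 5 of 9 members were past 2-fold, against 5.21% of genes: Dcn, Fmod (0.440), Kera (0.397) and Prelp (0.303) were lower and Omd (3.02, 2.44 to 3.77) was higher. Omd stood at 1.34 in their Lrrc15-led subset, and the Igf2-led subset was 2.07% of the class at 4 dpf and 23.7% at 7 dpf. In fibroblast-like cells 3 of 9 were past 2-fold against 5.38%, Dcn, Prelp and, upward, Kera (2.61). In fibroblast precursor-like cells 3 of 8 tested were, against 5.01%, Aspn (2.16) and Fmod (5.86) upward and Prelp (0.366) downward. The Fmod levels there were low, 1.51 and 8.86 CPM, the latter above the macrophage-like range. After thinning, 1.99% of these cells had an Fmod UMI in control at 7 dpf, against 2.99% of macrophage-like cells. This Fmod difference was therefore not told apart from background. Fmod was the 1 member past 2-fold in committed (3.69, 3.43 to 3.98) and common cells (4.44, 3.66 to 5.43), against 2.64% and 4.11% of genes.

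In the RA callus, 1 of 9 members was past 2-fold from 4 to 7 dpf in the pooled classes, Omd at 2.22 times (1.98 to 2.51), against 2.92% of 16441 genes, 1.68% higher and 1.24% lower. Omd was below 2-fold, at log2 ratios of 0.76, 0.83, 0.92 and 0.66, with a pseudocount of 10 CPM, with cells thinned to 4000 UMIs, with classes weighted equally and with the class mix of the 4 dpf library. Dcn went from 3759.7 to 4972 CPM, 1.32 times (1.31 to 1.33). Lum (1.85, 1.82 to 1.88) and Kera (1.87, 1.76 to 1.98) were just inside 2-fold, and with the looser cell filter 4 members were past it. Fmod was lower at 0.627 times (0.615 to 0.639), a direction that rested on tenocyte precursor-like cells. Without them its log2 ratio turned from -0.67 to 1.09 in RA, and over time in control from -0.59 to 2.45. The family was 1.14 times its level at 4 dpf (1.14 to 1.15).

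By class in the RA callus, Lum was higher at 7 than at 4 dpf in 5 of 5 classes, from 1.16 in fibroblast-like to 3.23 in common cells, and Kera was higher in 5 of 5, with 13.4% of genes higher in all 5 and 7.18% lower in all 5. Dcn was higher in 3 classes and lower in the 2 that held most of it, at 0.749 (0.736 to 0.761) in tenocyte precursor-like and 0.988 (0.978 to 0.998) in fibroblast-like cells. In committed progenitor-like cells 4 of 9 members were past 2-fold, each of them higher, against 4.91% of genes: Dcn (2.45, 2.40 to 2.50), Lum (2.98, 2.89 to 3.08), Fmod (2.28, 2.09 to 2.49) and Kera, which went from 3 UMIs to 43.5 CPM, a ratio of 141 (48.3 to 686). In common mesenchymal-like cells 5 of 9 were, against 7.24%: Dcn (3.15), Lum, Fmod (5.83), Omd (6.39) and Kera, which was at least 41.1-fold higher than a floor of 3 UMIs in the 4 dpf library. In tenocyte precursor-like cells Fmod (0.434, 0.425 to 0.443) and Prelp (0.285, 0.269 to 0.302) were lower, 2 of 9 against 6.71%. In their Angptl7-led subset Dcn stood at 0.986, Fmod at 1.07 and Prelp at 0.630. In the Col22a1-led subset they stood at 0.779, 0.603 and 0.456. Other subsets had fewer than 20 cells at 4 dpf. The Lrrc15-led share of the class went from 7.37% to 50.4%, and the Col22a1-led share from 53.7% to 19.9%. In fibroblast precursor-like cells 3 of 9 members passed 2-fold against 6.01%, Lum (2.30) and Omd (2.40), both higher, and Kera. Kera there went from 2 UMIs, under the floor of 3, to 5.09 CPM, with an interval of the ratio from 2.03 to 62.7, and is not read as a difference, since macrophage-like cells went from 0.0437 to 2.43 CPM in the same libraries. In fibroblast-like cells Kera was the 1 member past 2-fold, at 12.4 times (5.65 to 34.1) from 6 UMIs to 10.0 CPM, against 2.75% of genes. After thinning, 2.26% of these cells had a Kera UMI in RA at 7 dpf, against 1.07% of macrophage-like cells. The part of the rising macrophage-like background in this and the other class differences of Kera over time in RA was not tested.

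Genes that work with the SLRPs were read from fixed lists in the pooled classes at 7 dpf, RA against control, where 2.54% of all genes were past 2-fold. Of the other SLRPs, 9 were tested and 1 was past 2-fold, Podnl1 (podocan-like), at 4.82 against 12.8 CPM, 0.378 times (0.339 to 0.421). The enzymes that build chondroitin and dermatan sulfate chains (25 tested) and those that build keratan sulfate chains (10 tested) had 0 past 2-fold, with median log2 ratios of -0.18 and 0.03. Of 14 collagens of the fibrils that SLRPs coat, 2 were past 2-fold and lower: Col2a1, the cartilage collagen, at 863 against 1905 CPM (0.453, 0.449 to 0.457), and Col12a1, a fibril-associated collagen, at 413 against 875 CPM (0.472, 0.466 to 0.477). Of 18 large and cell-surface proteoglycans, 2 were past 2-fold and lower: Acan, the cartilage proteoglycan aggrecan, at 178 against 469 CPM (0.380, 0.373 to 0.387), and Sdc3, a syndecan, at 24.9 against 53.3 CPM (0.468, 0.445 to 0.492). The pool held 131 osteochondral cells of 4110 in RA and 229 of 3179 in control. Within their Col10a1-led subset Col2a1 was 33006 against 35201 CPM and Acan 5150 against 4778 CPM. In the Kcnq3-led subset they were 8518 against 6812 CPM and 1866 against 2334 CPM. The part of class mix in the pooled list values was not tested. Of 20 receptors, ligands and proteases known to meet SLRPs, 2 were past 2-fold and higher: Mmp3, a protease that cuts decorin, at 378 against 69.6 CPM (5.44, 5.29 to 5.59), and Adamts5, the aggrecanase, at 277 against 118 CPM (2.35, 2.29 to 2.40). The median log2 ratio of that last list was 0.36, beside -0.03 for all genes.

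The same lists at the other comparisons gave these counts, to be read beside 1.59% of all genes past 2-fold between RA and control at 4 dpf, 3.22% over time in control and 2.92% over time in RA. At 4 dpf, RA against control, 1 of 7 other SLRPs (Chad, lower), 0 of 24 chondroitin and dermatan sulfate enzymes, 1 of 10 keratan sulfate enzymes (Chst5, lower), 0 of 14 collagens, 0 of 18 proteoglycans and 1 of 19 receptors and proteases (Mmp13, higher) were past 2-fold. From 4 to 7 dpf in control, 2 of 9 other SLRPs (Epyc higher and Podn lower), 2 of 25 chondroitin and dermatan sulfate enzymes (Slc35d1 and Papss2, higher) and 0 of 10 keratan sulfate enzymes were. So were 3 of 14 collagens (Col2a1, Col11a1 and Col11a2, higher), 6 of 18 proteoglycans (5 higher) and 3 of 19 receptors and proteases, Mmp13 higher with Mmp3 and Adamts5 lower. In RA over the same days the counts were 3 of 9 (Epyc and Chadl higher, Podnl1 lower), 0 of 25, 0 of 10, 4 of 14 (all higher), 4 of 18 (3 higher) and 1 of 20 (Mmp13, higher). Osteochondral cells went from 2 to 229 in control and from 2 to 131 in RA over these days, and their part in these counts was not tested.

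Over the 22 class and library sums, the genes whose log2 level followed a member most closely by Pearson correlation were Prkag2 for Dcn (0.955), Arhgap24 for Bgn (0.847), Prnp for Lum (0.894), Cacnb2 for Fmod (0.955), Dennd4a for Aspn (0.908), Ltbp3 for Ogn (0.947), Rab15 for Kera (0.938), Galnt18 for Prelp (0.933) and Fgfr2 for Omd (0.951). No member was the closest gene of another. The next were Ifrd1 and Abca3 for Dcn, Grid1 and Plxnc1 for Bgn, Scrn1 and Ngly1 for Lum, Strbp and Npas3 for Fmod, Sorcs2 and Wtip for Aspn, 1700024B18Rik and Ankrd12 for Ogn, Chodl and A330102I10Rik for Kera, Osbpl1a and Vit for Prelp and Abhd12 and 4921511C10Rik for Omd. Among pairs of members the highest values were Aspn with Ogn (0.776), Fmod with Kera (0.769), Dcn with Ogn (0.765) and Dcn with Prelp (0.763), whereas Bgn with Fmod (0.0324) and Omd with Ogn (-0.0273) were near 0. These sums share libraries and differ in depth and cell number, so the correlations are descriptions over classes and not tests.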

How the data were processed

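Callus cells of 4 libraries (10x Genomics 3' chemistry, 10000 cells loaded each) were analysed. The authors aligned reads and counted UMIs per gene and barcode with Cell Ranger 7.0.1 on the mm10 genome and deposited raw counts as sparse matrices. The labels describe a pool of 4 calluses per library and no replicate of a group. Cells with 4000 to 50000 UMIs, 2000 to 7000 features and at most 8% mitochondrial UMIs were kept, as in the study's methods, leaving 5470, 7676, 4110 and 8223 cells for control 4 dpf, control 7 dpf, RA 4 dpf and RA 7 dpf. Libraries were integrated and clustered in Seurat 5.3.0 (R 4.3.3) on 2000 variable genes without the 9 members, with 15 principal components. Clusters were named "-like" from fixed markers, excluding the members, with naming thresholds chosen once the clusters were known. A cluster with mostly doublets stayed unnamed. The doublet caller Scrublet in scanpy 1.11.5 marked 592 cells, which were kept in the main analysis. Subsets of the tenocyte and osteochondral clusters came from further clustering.

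UMIs were summed per class and library and divided by the total of the same cells (CPM). Log2 ratios used a pseudocount of 1 CPM; a gene was tested with at least 50 UMIs over both libraries and called past 2-fold at a log2 ratio of 1 or more in size. Intervals are exact Poisson or conditional binomial, at 95%, for counting error only. Named genes were the members, list genes past 2-fold between RA and control at 7 dpf, and the 3 genes most correlated with each member; list genes named at other comparisons, subset markers and overlapping genes were named after their values were seen. Members and lists were chosen with earlier results of these data known. The 2 alternatives on subsets led by macrophage genes were added after seeing the data. The calculation was tested on simulated data.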

Additional observations from a re-analysis of the deposited data

Results flagged for a closer look

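Between 4 and 7 dpf the ratio of RA to control in the pooled classes changed side for 5 members, and each interval lay wholly on its side of 1. Dcn was 0.661 at 4 dpf and 2.10 at 7 dpf, Lum 0.816 and 1.44, Kera 0.278 and 1.83, Prelp 0.718 and 1.44, and Bgn went the other way from 1.12 to 0.949. Over the same libraries the ratio of 7 to 4 dpf was on different sides in control and RA callus for 3 members: Dcn was 0.416 in control and 1.32 in RA, Kera 0.284 and 1.87, and Bgn 1.03 and 0.870. With 1 library in each group these differences were not tested, and both sets of values rest on the same 4 libraries. The share of all genes that changed side in this way was not counted, so the counts of 5 and 3 are not read as a trait of the members. The log2 ratio of Bgn over time turned from 0.039 to -0.047 in control with TMM scaling, and from -0.20 to 0.090 in RA with the looser cell filter. Without tenocyte precursor-like cells the log2 ratio of Kera over time in control was 0.34, so Kera was then higher at 7 dpf in both control and RA. The mean of its class log2 ratios in control was 0.25, which gives classes with little Kera the same weight as the others.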

How the results depend on the processing

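The pooled-class results were recomputed under 16 alternatives, 1 of which bears on the counts of members alone. For the family and the counts of members 91 of 135 values stayed within their limits, and for single members 326 of 540 did, 212 moved and 2 reversed. Changes of sign were more frequent than these 2 reversals. Between RA and control, Fmod at 4 dpf kept its sign in 8 of 15 alternatives, Omd at 4 dpf in 11, and Omd and Ogn at 7 dpf in 12 each. Over time, Fmod kept its sign in 12 of 15 in control and in RA. No paired analysis was possible because each group was 1 library. Family log2 ratios are given in the order RA against control at 4 dpf, at 7 dpf, 7 against 4 dpf in control and in RA, where the reported values were -0.29, 0.37, -0.47 and 0.19. They were -0.21, 0.42, -0.22 and 0.41 with classes from marker levels, -0.21, 0.42, 0.0914 and 0.72 with the looser cell filter, -0.18, 0.37, -0.26 and 0.29 without tenocyte precursor-like cells, -0.36, 0.41, -0.55 and 0.22 with TMM scaling, -0.33, 0.39, -0.60 and 0.12 with cells thinned to 4000 UMIs, -0.19, 0.21, -0.22 and 0.24 with classes weighted equally, and -0.16, 0.28, -0.38 and 0.15 with the class mix of the reference library. With doublets left out the control and RA time ratios were -0.46 and 0.20, and with the osteochondral subset led by macrophage genes added the control time ratio was -0.47 and the 7 dpf ratio 0.38. The count of members past 2-fold at 4 dpf was 1 (Kera) under all 16. At 7 dpf it was 2 with the looser filter, 3 without tenocyte precursor-like cells and 0 with the class mix of the reference library. Over time in control it was 1 with the looser filter and 2 with classes weighted equally. Over time in RA it was 3 with marker levels, 4 with the looser filter, 3 without tenocyte precursor-like cells, 2 with equal weights, and 0 with a pseudocount of 10 CPM, with thinned cells and with the class mix of the reference library. Kera from 4 to 7 dpf in control turned from -1.79 to 0.34 without tenocyte precursor-like cells. With classes weighted equally, which is the mean of the class log2 ratios, it was 0.25. The looser filter drops the upper UMI limit. The cause of these shifts was not tested. Levels under 3 UMIs in a class and library were not detectable at this depth.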
